A study of Mus musculus with 7 samples.

Results

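Transcripts of 10 genes that carry out necroptosis and pyroptosis were followed in kidneys of cisplatin-treated mice given either saline or DXZ. The members were taken from the deposited count table by gene symbol: Zbp1, Ripk1, Casp8, Ripk3 and Mlkl of the necroptosis pathway, Casp1, Casp4, Gsdmd and Gsdme of the pyroptosis pathways, and Ninj1. Each symbol matched 1 of the 54532 genes in the table, and all 10 passed the low-count filter that left 15351 genes for testing. The kidneys came from C57BL/6J mice, male and aged 6 to 8 weeks. Every animal in both groups had received 20 mg/kg of cisplatin by tail vein (a platinum drug toxic to kidney tubules). The saline group held 4 libraries, and the DXZ group held 3 libraries from mice that received 40 mg/kg of DXZ intravenously, first 30 min ahead of cisplatin and afterwards each 24 h over 3 days. DXZ is written as in the labels, which give no full name. No library without cisplatin was analysed here, so each value compares 2 cisplatin-treated groups and none describes an uninjured kidney. Nothing in the labels ties the libraries to separate animals, so the p-values measure the spread between these libraries only. Total counts ranged from 16058157 to 18133736 per library. The 17 proximal tubule markers were all detected and summed to between 4288 and 18380 CPM per library, as a kidney sample should show. CPM is a count scaled to the size of its library, with TMM factors that set the libraries on a common scale.

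Necroptosis and pyroptosis are programmed forms of cell death in which the plasma membrane is broken open and the cell's contents are released. In necroptosis, the kinases RIPK1 and RIPK3 join through a shared interaction motif, RIPK3 phosphorylates the pseudokinase MLKL, and MLKL then permeabilizes the membrane. ZBP1, a sensor of Z-form nucleic acids, can engage RIPK3 in place of RIPK1, while caspase-8 cleaves the RIPK kinases and holds the pathway in check. In pyroptosis, inflammatory caspases cut gasdermin proteins, whose amino-terminal parts form membrane pores. Caspase-1 is activated by inflammasomes, caspase-4 (the mouse protein is often called caspase-11) by cytosolic lipopolysaccharide, and both cut gasdermin D. Gasdermin E is a further pore-forming member of that family. NINJ1 then ruptures the membrane of the dying cell. In the kidney, RIPK3 and MLKL are known for their part in tubule cell death after cisplatin. Much of this signalling is set by protein cleavage and phosphorylation, which transcript levels do not measure.

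The necroptosis executors Ripk3 and Mlkl were higher in DXZ than in saline and Ripk1 was lower, while the pyroptosis caspases and gasdermins did not pass the test. Of the 10 members, 3 changed by edgeR's quasi-likelihood test at an adjusted p below 0.05, against 5.56% of all genes tested. A pair rose, where 3.24% of all genes rose, and 1 fell, where 2.31% of all genes fell. The groups did not overlap for 5 of the 10 members, against 24.1% of all genes. The median log2 fold change was 0.30 over the members and 0.01 over all genes. In bulk tissue, a change in the number of cells of a type and a change in RNA per cell cannot be told apart. All 3 calls depended on single libraries. By edgeR, 0 members passed without saline 1 or without saline 3, in fits that called 374 and 426 genes. Also 0 members passed without saline 4 or without DXZ 2, in fits that called 4 and 1 genes (3074 and 3191 genes had an unadjusted p below 0.05).

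**Figure D1:**
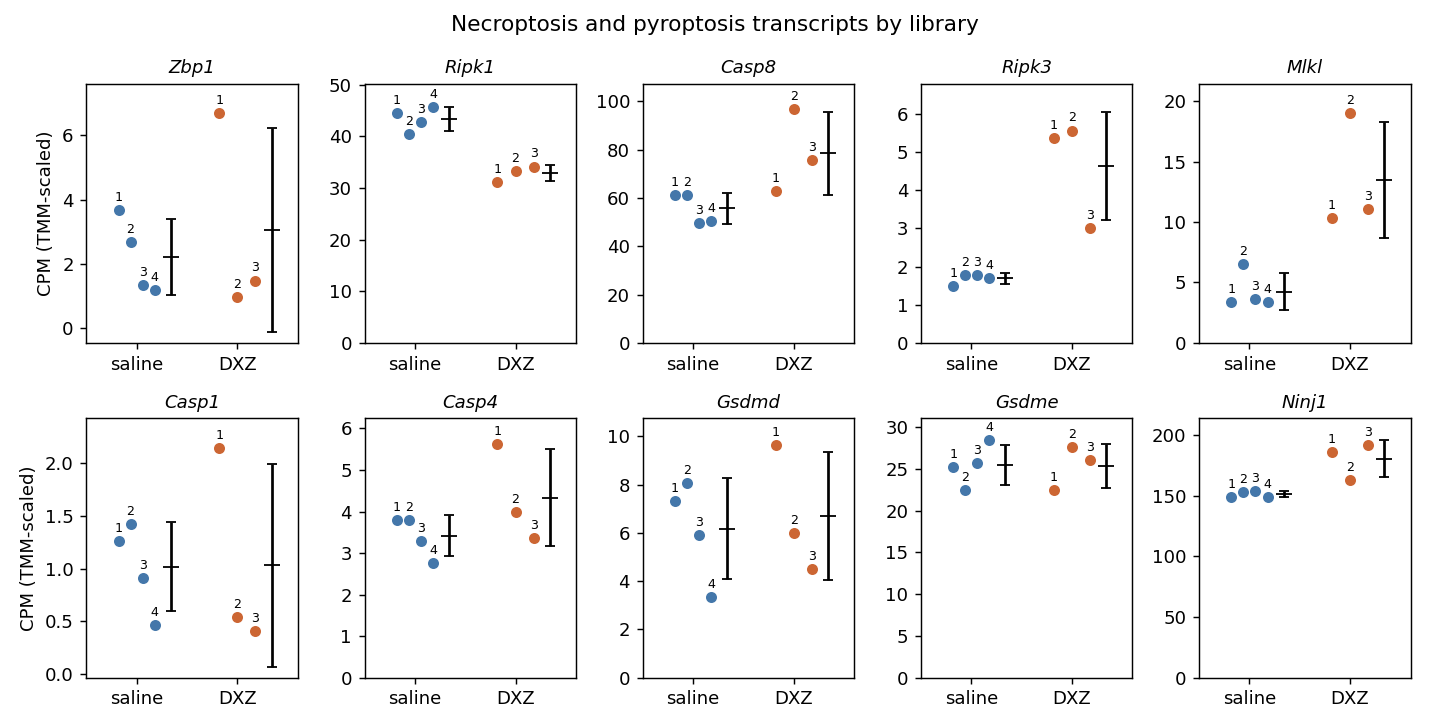
Level of each member in every library, in TMM-scaled CPM on linear axes. Points are libraries numbered as in the labels, with saline in blue and DXZ in orange; the black bar and whiskers give the mean and SD (n = 4 saline, n = 3 DXZ). The DXZ points of Ripk3 and Mlkl lie above, and those of Ripk1 below, every saline point.

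Ripk3, the kinase that relays the necroptosis signal to MLKL (chromosome 14, 55784995 to 55788865, minus strand, GRCm38), was at 1.49, 1.78, 1.77 and 1.70 CPM in saline 1 to 4. In DXZ 1 to 3 it was at 5.35, 5.56 and 3.01 CPM. The saline libraries lay close together, DXZ 1 and DXZ 2 were high, and DXZ 3 was the lowest of its group but above every saline library. Its mean was 1.69 ± 0.14 CPM in saline (SD, n = 4) and rose to 4.64 ± 1.42 CPM under DXZ (SD, n = 3), a 2.74-fold difference (edgeR log2 fold change 1.46, SE 0.28, 95% interval 0.82 to 2.09, adjusted p = 0.0313). These values rest on few reads: 26 to 30 counts in each saline library and 51 to 95 in each DXZ library. The call held without DXZ 1 (edgeR adjusted p = 0.0398) and without DXZ 3 (0.0495), and was lost with any other library left out.

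Mlkl, the pseudokinase that permeabilizes the membrane (chromosome 8, 111311797 to 111338177, minus strand), was at 3.38, 6.54, 3.60 and 3.41 CPM in saline 1 to 4 and at 10.4, 19.1 and 11.1 CPM in DXZ 1 to 3. Saline 2 stood above the other saline libraries and DXZ 2 above the other DXZ libraries, and the groups did not overlap. The mean rose from 4.23 ± 1.54 to 13.5 ± 4.81 CPM, a 3.19-fold difference (edgeR log2 fold change 1.67, SE 0.32, 95% interval 0.94 to 2.40, adjusted p = 0.0313). The call held without saline 2 (edgeR log2 fold change 1.96, adjusted p = 0.0391) and without DXZ 1 (1.83, 0.0250), and was lost with any other library left out.

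Ripk1, the kinase that starts necroptosis downstream of TNF receptor 1 and also acts as a scaffold for survival signals (chromosome 13, 34002363 to 34037147, plus strand), moved the other way. It was at 44.4, 40.4, 42.8 and 45.7 CPM in saline 1 to 4 and at 31.1, 33.3 and 34.1 CPM in DXZ 1 to 3. Both groups were tight and did not overlap. The fall, 43.4 ± 2.28 in saline against 32.8 ± 1.59 CPM under DXZ, passed (edgeR log2 fold change -0.40, SE 0.09, 95% interval -0.60 to -0.20, adjusted p = 0.0431). The call did not hold with any library left out (edgeR adjusted p from 0.0553 to 0.128), although the log2 fold change stayed between -0.43 and -0.36. Serpinb6a, on the opposite strand, overlaps 344 exonic bases of Ripk1, and the use of strand in counting is not given in the sources used here.

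Within each library, the balance among these 3 transcripts can be read without any scaling between libraries. Per length, Ripk3 was at 0.12, 0.16, 0.15 and 0.14 of Ripk1 in saline 1 to 4 and at 0.63, 0.61 and 0.32 of it in DXZ 1 to 3. The Mlkl to Ripk1 ratio was 0.28, 0.59, 0.30 and 0.27 in saline and 1.21, 2.07 and 1.18 in DXZ, so that Mlkl exceeded Ripk1 in each DXZ library and in none of the saline libraries. The Mlkl to Ripk3 ratio overlapped between the groups, at 1.99 to 3.65 in saline and 1.93 to 3.67 in DXZ. These ratios are descriptions of genes already called and add no further test.

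Promoter sequences, from 250 bases before to 50 after the start of transcription, are shown for the 3 members that changed, so that the letters around the starts of the rising pair can be set beside those of the falling gene. They are from RefSeq on GRCm38.p6, where 8 of the 10 members had an entry, and are written 5′ to 3′ on the gene's own strand. Ripk1 has a pair of annotated starts, of which the downstream one is printed. Capitals mark matches, on either strand, to an interferon-stimulated response element core (GAAANNGAA), an interferon-gamma activated site (TTCNNNGAA), the first 9 letters of a kappa-B site (GGGNNTTTC), a GC box of the kind Sp1 binds (GGGCGG) or an AP-1 site (TGANTCA).
Ripk3, chr14:55788808-55789107, minus strand: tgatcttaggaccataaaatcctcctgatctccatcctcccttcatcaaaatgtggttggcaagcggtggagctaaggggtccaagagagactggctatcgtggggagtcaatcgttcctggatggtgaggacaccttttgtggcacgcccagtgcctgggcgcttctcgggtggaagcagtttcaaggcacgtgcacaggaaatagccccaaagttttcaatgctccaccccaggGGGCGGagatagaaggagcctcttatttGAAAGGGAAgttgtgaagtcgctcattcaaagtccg
Mlkl, chr8:111338156-111338455, minus strand: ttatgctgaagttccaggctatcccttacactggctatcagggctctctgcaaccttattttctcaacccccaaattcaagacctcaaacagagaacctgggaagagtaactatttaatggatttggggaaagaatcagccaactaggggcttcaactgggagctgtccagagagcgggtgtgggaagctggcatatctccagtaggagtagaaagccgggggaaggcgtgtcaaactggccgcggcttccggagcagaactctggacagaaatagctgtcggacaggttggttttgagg
Ripk1, chr13:34002624-34002923, plus strand: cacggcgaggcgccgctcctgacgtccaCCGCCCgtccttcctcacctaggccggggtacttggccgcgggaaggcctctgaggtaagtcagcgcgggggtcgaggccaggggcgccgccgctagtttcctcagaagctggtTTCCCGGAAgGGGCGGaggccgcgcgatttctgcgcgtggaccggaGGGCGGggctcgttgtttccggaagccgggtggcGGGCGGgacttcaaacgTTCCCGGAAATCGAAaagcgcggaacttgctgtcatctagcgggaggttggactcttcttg

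The Ripk3 window held 1 GC box, at -14 from the start, and 1 interferon element core, at 15. The Mlkl window held none of the 5 motifs, so the rising pair shared no motif searched. The printed Ripk1 window held 4 GC boxes, a pair of TTCNNNGAA matches at -108 and -11 and 1 interferon element core at -5, the last overlapping the activated site next to it. The upstream Ripk1 window held 3 GC boxes and none of the others. Among 32851 RefSeq promoter windows of 300 bases, 35.7% held a GC box, 8.56% an interferon element core, 8.30% an activated site, 7.81% an AP-1 site and 4.36% the kappa-B letters. A match is a description of these letters and not a measured site, and a window without a match says only that these letters are not in it.

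Casp8, the protease that cuts the RIPK kinases, was at 61.2, 61.4, 49.7 and 50.6 CPM in saline 1 to 4 and at 62.8, 96.9 and 75.5 CPM in DXZ 1 to 3. The groups did not overlap, but DXZ 1 was only just above saline 1 and saline 2. The log2 fold change of 0.49 (SE 0.16, 95% interval 0.13 to 0.86) did not pass (edgeR adjusted p = 0.102). Without DXZ 1 it was 0.63 and passed (edgeR adjusted p = 0.0401), in a fit that called 10.1% of all genes, and it also passed in the fit without the pair of libraries numbered 1 (0.68, edgeR adjusted p = 0.0412).

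Zbp1, the nucleic acid sensor, was at 3.67, 2.68, 1.34 and 1.17 CPM in saline 1 to 4 and at 6.71, 0.97 and 1.48 CPM in DXZ 1 to 3. DXZ 1 was the highest and DXZ 2 the lowest of all 7 libraries, so the groups overlapped. The log2 fold change was 0.46 with all libraries (SE 0.70, 95% interval -1.14 to 2.07, edgeR adjusted p = 0.726) and -0.85 without DXZ 1 (edgeR adjusted p = 0.326), and neither passed.

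Of the 4 inflammatory caspases and gasdermins, 0 passed edgeR's test, and 0 had an unadjusted p below 0.05. Casp1, the inflammasome protease, was at 1.26, 1.43, 0.92 and 0.47 CPM in saline 1 to 4 and at 2.14, 0.54 and 0.41 CPM in DXZ 1 to 3. As with Zbp1, DXZ 1 was the highest library. DXZ 3 was the lowest, and DXZ 2 lay between saline 4 and saline 3. Its log2 fold change was 0.03 with a 95% interval of -1.44 to 1.49 (edgeR adjusted p = 0.985), and -1.08 without DXZ 1 (0.225). It was covered by only 7 to 38 counts per library.

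Casp4, which lies just downstream of Casp1 on chromosome 9 and senses lipopolysaccharide, was at 3.78, 3.81, 3.30 and 2.76 CPM in saline 1 to 4 and at 5.64, 3.99 and 3.37 CPM in DXZ 1 to 3. DXZ 3 fell among the saline libraries (edgeR log2 fold change 0.34, 95% interval -0.24 to 0.92, adjusted p = 0.434). Without DXZ 1 the log2 fold change was 0.11.

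Gsdmd, the pore-forming substrate of both caspases (chromosome 15, 75862327 to 75867408, plus strand), was at 7.34, 8.09, 5.93 and 3.35 CPM in saline 1 to 4 and at 9.64, 5.99 and 4.49 CPM in DXZ 1 to 3. The groups overlapped (edgeR log2 fold change 0.12, 95% interval -0.70 to 0.94, adjusted p = 0.872), and the sign turned without DXZ 1 (-0.24) or without saline 4 (-0.09). Gsdme, which encodes gasdermin E, was the most even member, at 22.5 to 28.4 CPM in saline and 22.5 to 27.6 CPM in DXZ. Its log2 fold change was 0.00, with a 95% interval of -0.28 to 0.27 (edgeR adjusted p = 0.988), so that a difference as large as that of Ripk3 or Mlkl lies outside its interval. Mpp6, on the opposite strand, overlaps 4628 of the 12742 exonic bases of Gsdme, so reads of this pair cannot be told apart if strand was not used.

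Ninj1, which ruptures the membrane at the end of several lytic deaths (chromosome 13, 49187485 to 49196244, plus strand), was by far the most abundant member. It was at 149, 153, 154 and 149 CPM in saline 1 to 4 and at 186, 163 and 192 CPM in DXZ 1 to 3. The saline libraries agreed closely and each DXZ library was above them. The difference was small, at 151 ± 2.62 against 180 ± 15.1 CPM (log2 fold change 0.25, SE 0.09, 95% interval 0.04 to 0.46), and did not pass (edgeR adjusted p = 0.133).

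**Figure D2:**
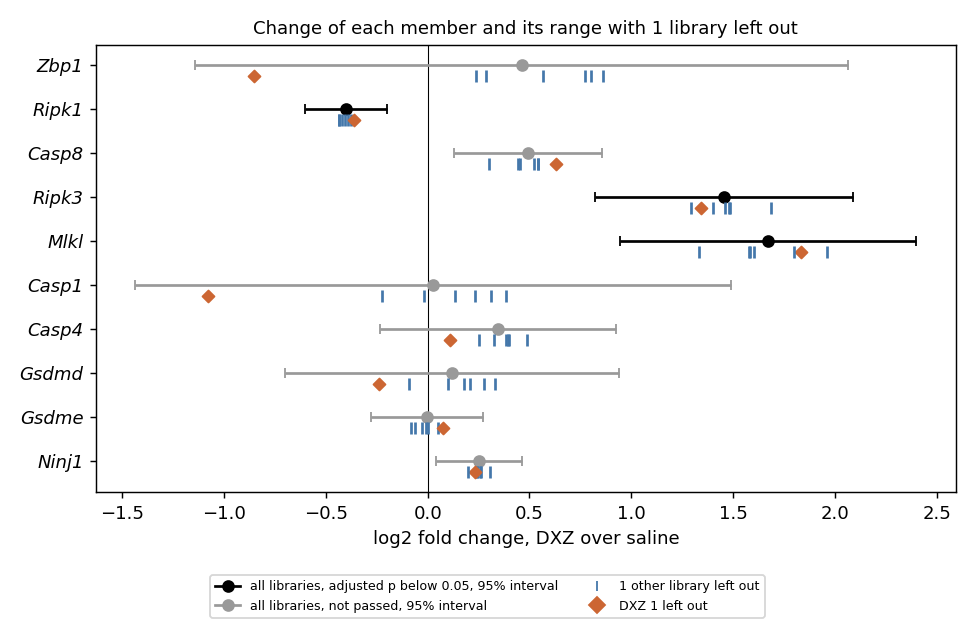
Log2 fold change of each member, DXZ over saline, with its 95% interval from edgeR (black where the adjusted p was below 0.05, grey otherwise). Marks under each interval give the value with 1 library left out, and the orange diamond leaves out DXZ 1: Zbp1, Casp1 and Gsdmd turned negative there, while Ripk3 (1.34) and Mlkl (1.83) stayed well above 0.

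Levels of different genes were compared per length, as FPKM, which divides counts by gene length and by a constant of each library. In saline the order was Ninj1 (96.0 ± 1.43 FPKM), Casp8 (19.2 ± 2.17), Ripk1 (5.17 ± 0.29), Gsdmd (2.58 ± 0.87), Gsdme (1.99 ± 0.20), Mlkl (1.83 ± 0.66), Casp4 (0.92 ± 0.13), Ripk3 (0.73 ± 0.06), Casp1 (0.68 ± 0.28) and Zbp1 (0.62 ± 0.33). The ranges of neighbours did not overlap between Ninj1 and Casp8, Casp8 and Ripk1, Ripk1 and Gsdmd, and Mlkl and Casp4. All other neighbours overlapped and their order is not resolved. In DXZ, Mlkl stood at rank 3, with 5.83 ± 2.14 FPKM. By the deposited lengths, every DXZ library of Mlkl lay above the range of Ripk1 (3.91 ± 0.23). Ripk3, at 2.01 ± 0.61 FPKM in DXZ, stood at rank 6 and overlapped its neighbours Gsdmd (2.79 ± 1.07) and Gsdme (1.98 ± 0.23). The deposited lengths join all annotated exons of a gene, which lowers the FPKM of Gsdme most. The length of the longest coding transcript was an alternative chosen after seeing the data. With it, Gsdme moved from rank 5 to 4 in saline and from rank 7 to 4 in DXZ. Ripk3 moved from rank 6 to 8 and Ripk1 from rank 4 to 5 in DXZ, and Mlkl from rank 6 to 7 in saline. Ninj1, Casp8 and, in DXZ, Mlkl kept ranks 1 to 3. The clear range between Mlkl and Ripk1 in DXZ rests on the deposited lengths.

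**Figure D3:**
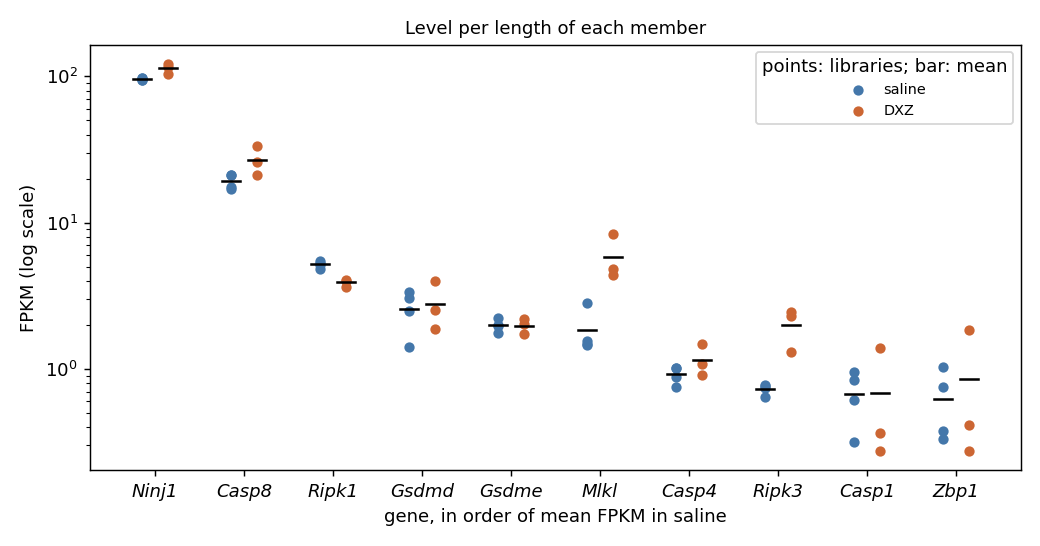
FPKM of each member on a log axis, in the order of the saline mean; points are libraries and the short black bar is the group mean. Ninj1 and Casp8 lead in both groups, and Mlkl moves from rank 6 in saline (1.83 FPKM) to rank 3 in DXZ (5.83 FPKM).

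The members fell into different library patterns. Zbp1, Casp1, Casp4 and Gsdmd were highest in DXZ 1. The macrophage, endothelial, and fibroblast and pericyte lists were highest there too. The score of the 17 macrophage markers, their mean log2 CPM less the mean over the 7 libraries, stood at 1.401, -0.81 and -1.15 in DXZ 1 to 3, and ran from -0.53 in saline 4 to 0.72 in saline 2. Their summed level was 175 to 334 CPM in saline and 558, 222 and 165 CPM in DXZ 1 to 3. The score of 26 interferon response genes stood at 1.03, -0.17 and 0.11 in DXZ 1 to 3, against -0.52 to 0.20 in saline. Within saline the same 4 members were lowest in saline 4, which also had the lowest macrophage and interferon scores. The part of infiltrating cells in these 4 members was not tested.

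Ripk3 and Mlkl differed from that pattern. Mlkl was highest in DXZ 2, while Ripk3 was nearly level in DXZ 1 and DXZ 2 (5.35 and 5.56 CPM, from 95 and 92 counts). In DXZ 2 and DXZ 3, with the lowest macrophage scores of all libraries, Ripk3 and Mlkl were both above every saline library. The part of infiltrating cells in the Ripk3 and Mlkl values was not tested. Neutrophil markers summed to 6.67 to 21.7 CPM and lymphocyte markers to 2.30 to 8.20 CPM over all libraries, both highest or near highest in DXZ 1. None of the markers of these 3 lists was at 0 in all libraries. Of the 17 macrophage markers, 2 rose and 0 fell, against 3.24% and 2.31% of all genes. Cd68 was at 7.97 to 16.95 CPM in saline and at 40.6, 57.0 and 32.1 CPM in DXZ 1 to 3 (edgeR adjusted p = 0.0215). Within the groups it was highest in saline 2 and DXZ 2, as was Mlkl. Cd14 was at 24.9 to 38.6 CPM in saline and 53.6 to 67.1 CPM in DXZ (edgeR adjusted p = 0.0275). The other 15 did not pass. Over the 17 markers, the log2 fold change was positive for 10 and negative for 7, with a median of 0.075, so Cd68 and Cd14 do not stand for the list. Some tubule lists separated the groups, and their counts stand against 3.24% of all genes higher and 2.31% lower. The proximal tubule score was 0.20 to 1.27 in saline and -1.22 to -0.65 in DXZ, and 10 of 17 of its genes fell and 0 rose. The thick limb and distal tubule score was 0.12 to 0.90 in saline and -0.77 to -0.32 in DXZ, and 3 of 12 genes fell and 0 rose. The collecting duct score overlapped, at -0.55 to 0.25 in saline and -0.03 to 0.37 in DXZ, and 1 of 9 genes rose and 0 fell. The score of 18 tubule injury genes was -0.87 to 0.16 in saline and 0.19 to 0.87 in DXZ, and 6 of them rose and 0 fell. Saline 2, whose Mlkl was highest among saline libraries, also had the highest saline injury score, 0.16. In DXZ the 2 parted: the injury score was highest in DXZ 1 (0.87) and Mlkl in DXZ 2. The part of tubule injury in the Ripk3, Mlkl and Ripk1 values was not tested. Endothelial markers, at 182 to 981 CPM in sum, had scores of 0.06 to 0.72 in saline and 0.79, -0.91 and -1.46 in DXZ 1 to 3.

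**Figure D4:**
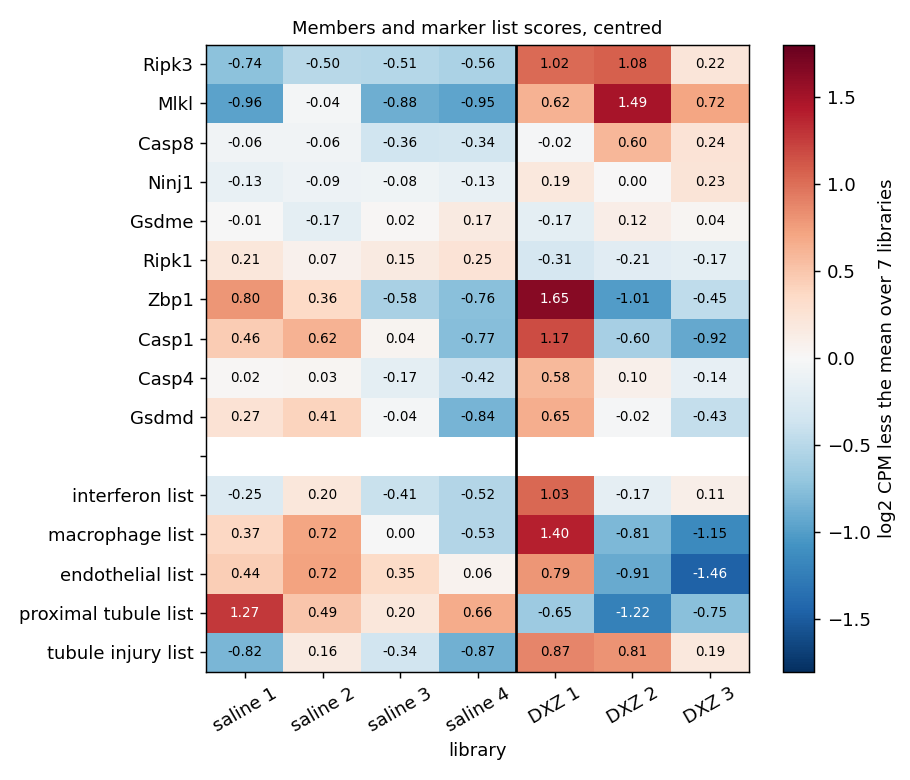
Log2 CPM of each member, and the mean over each marker list, less the mean over the 7 libraries (colour and printed number), with saline left and DXZ right of the line. Ripk3 and Mlkl are positive in each DXZ library. Zbp1 and Casp1 are high in DXZ 1 (1.65 and 1.17) and negative in DXZ 2 and DXZ 3, like the macrophage and endothelial lists.

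The genes around the members were read from 5 lists. Of 33 tested genes that form or control the death receptor complex, 1 rose and 0 fell. These shares are below the 3.24% and 2.31% of all genes. The median log2 fold change of the 33 was 0.15. The gene that rose was Birc3, an inhibitor of apoptosis protein that ubiquitinates RIPK1. It was at 25.97, 34.01, 25.6 and 23.7 CPM in saline 1 to 4 and at 50.4, 40.1 and 41.7 CPM in DXZ 1 to 3, with no overlap (edgeR log2 fold change 0.69, SE 0.15, adjusted p = 0.0410). The call of Birc3 held only without saline 2 (edgeR adjusted p = 0.0393) and was lost with any other library left out. The receptor and adaptors did not pass: Tnfrsf1a, TNF receptor 1, was at 179 ± 12.9 and 187 ± 20.7 CPM (edgeR log2 fold change 0.07, adjusted p = 0.760), and Fadd, which bridges the receptor complex to caspase-8, at 19.6 ± 0.43 and 17.99 ± 1.28 CPM (-0.13, 0.484). Cflar, which encodes the caspase-8 partner cFLIP, was at 148 ± 0.94 and 144 ± 4.18 CPM (-0.03, 0.830). Tnf itself had 45 counts over all 7 libraries, too few to test, at 0.18 to 0.92 CPM in saline and at 0.79 CPM in DXZ 1, and it had no count in DXZ 2 or DXZ 3.

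Of 13 tested inflammasome sensors, adaptors and guanylate-binding proteins, 1 rose and 1 fell, against 3.24% and 2.31% of all genes. The median log2 fold change of the 13 was 0.17. Pycard, encoding the adaptor ASC that links sensors to caspase-1, was at 6.25, 9.81, 7.88 and 6.46 CPM in saline 1 to 4 and at 16.8, 16.1 and 12.7 CPM in DXZ 1 to 3. The groups did not overlap (edgeR log2 fold change 0.999, SE 0.20, adjusted p = 0.0337). The call was kept without saline 2 (edgeR adjusted p = 0.0440) or DXZ 1 (0.0432) and lost with any other library left out. Nlrp6, a sensor of the NLR family, was at 92.1, 69.3, 64.0 and 71.5 CPM in saline and at 36.0, 30.8 and 46.2 CPM in DXZ; it fell (edgeR log2 fold change -0.98, SE 0.18, adjusted p = 0.0284). That call was lost without saline 2 (edgeR adjusted p = 0.0527), saline 4 (0.0824) or DXZ 2 (0.0887) and kept otherwise. Nlrp3, a widely studied sensor, had 59 counts in all and was not tested, at 0.29 to 0.55 CPM in saline and 1.69, 0.06 and 0.18 CPM in DXZ 1 to 3, again highest in DXZ 1. The Naip genes of this list are close copies of each other, so their counts are uncertain.

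Of 11 other caspases and gasdermins tested, 0 passed edgeR's test and 4 had an unadjusted p below 0.05, as did 3899 of all 15351 genes, and the median log2 fold change was 0.56. Of 8 tested cytokines, alarmins and their receptors, 0 passed by edgeR and 2 had an unadjusted p below 0.05, a share close to that over all genes. Il1b, cut by caspase-1, was at 1.35 ± 0.72 and 1.29 ± 1.68 CPM (edgeR log2 fold change -0.06, adjusted p = 0.978), highest in DXZ 1 at 3.21 CPM. Il18, the other main substrate, was at 1.55 ± 0.26 and 2.54 ± 1.18 CPM (0.70, edgeR adjusted p = 0.258). Irf1, an interferon-induced regulator, was at 22.6 to 39.0 CPM in saline and at 49.9, 18.8 and 30.8 CPM in DXZ 1 to 3. It did not pass (edgeR log2 fold change 0.19, adjusted p = 0.760), and its sign turned without DXZ 1 (-0.23).

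The ESCRT machinery, through its ESCRT-III part, removes damaged membrane and counters both MLKL and gasdermin pores. Its list of 15 genes also held Tsg101, Pdcd6ip and the ATPases Vps4a and Vps4b, which are outside ESCRT-III. Of the 15 genes, 4 were higher and 0 lower, against 3.24% higher and 2.31% lower of all genes. Their median log2 fold change was 0.17. Chmp4c was at 23.7 to 32.4 CPM in saline and 46.3 to 57.2 CPM under DXZ (edgeR log2 fold change 0.84, SE 0.13, adjusted p = 0.0216). Chmp4b, which forms the main filament, was at 143 to 174 and 216 to 235 CPM (0.49, edgeR adjusted p = 0.0388). Chmp2a was at 125 to 141 and 164 to 192 CPM (0.44, 0.0434), and Chmp2b at 81.5 to 106 and 129 to 152 CPM (0.52, 0.0468). All 4 were without overlap between groups, as were 24.1% of all genes. The calls of Chmp4b, Chmp2a and Chmp2b held only without DXZ 1 when a library was left out, and that of Chmp4c was lost without saline 4, DXZ 2 or DXZ 3 (edgeR adjusted p from 0.0664 to 0.0783). The ATPases Vps4a and Vps4b, which recycle the filaments, did not pass, with log2 fold changes of -0.06 and -0.01. These groups of genes were listed with earlier results of the same libraries known, so their counts are no independent evidence of a direction.

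For each changed member, the genes of nearest profile were sought among 10646 tested genes averaging 5 CPM or more. Nearness was the root-mean-square difference of centred log2 CPM over the 7 libraries. Highs and lows shared with a member follow from this choice and are no separate evidence of a link. Nearest to Ripk3 were Ercc1 (0.16 log2 units), Pdlim7 (0.18) and Fndc4 (0.19), against a range of 1.82 log2 units for Ripk3 itself. Ercc1, a subunit of the nuclease that removes platinum adducts, was at 12.1 to 16.01 CPM in saline and at 47.5, 55.9 and 24.5 CPM in DXZ 1 to 3, with the same low DXZ 3 as Ripk3. Nearest to Mlkl were Bco1 (0.16), Rps27a (0.21) and Adm (0.22), against a range of 2.45 for Mlkl. Rps27a, a ubiquitin-ribosomal fusion gene with processed copies elsewhere in the genome and therefore of uncertain counts, was at 87.2, 234, 107 and 95.5 CPM in saline 1 to 4, with the same high saline 2 as Mlkl. Nearest to Ripk1 were Kmt2c (0.04), Birc6 (0.05) and Sec62 (0.05), with log2 fold changes of -0.39 to -0.41 that did not pass (edgeR adjusted p from 0.0551 to 0.0599).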

How the data were processed

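Bulk RNA-seq of 7 kidney libraries (4 saline, 3 DXZ, all after cisplatin) was used as deposited. Count values are the authors' whole-number read counts per gene, without normalization. FPKM values, deposited by the authors, are the same counts over gene length and 1 constant per library. HISAT2, StringTie and mm9 are named without versions in the submitters' processing notes, but 98.3% of 54409 gene identifiers shared with GENCODE M21 had its GRCm38 start and end, so coordinates are taken as GRCm38. How reads were counted, and whether by strand, is not given in the sources used here.

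Counts were fitted in R 4.3.3 with edgeR 4.0.16: filterByExpr, TMM, and quasi-likelihood F tests, adjusted by Benjamini-Hochberg over 15351 genes. Each SE is the fold change over the square root of F. Alternatives used limma 3.58.1 and DESeq2 1.42.0, other scalings and filters, left-out libraries and the replicate number as a block. Fits were run on simulated counts with known changes, drawn independently for each gene, as a check of the code and not of these calls. Profiles used log2 CPM with a prior count of 2. Total counts were 16058157 to 18133736, and 1 count was worth 0.056 to 0.061 CPM. Replicate libraries differed by 14.0 to 90.4 times sampling noise. Members, lists and rules were chosen with earlier results of these data known. Named genes were the 10 members, genes past the threshold in 5 pathway lists (at most 6 each way), 10 set genes (1 of them not reported here), and the 3 nearest in profile to each changed member.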

Additional observations from a re-analysis of the deposited data

Results flagged for a closer look

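Among the 10 members, each tested once over the 4 saline libraries, Mlkl had 1 library far from the others: saline 2, at 6.54 CPM, lay apart from the other saline libraries by 0.93 of the group's whole range. About 1 in 20 such groups is marked by chance. Without saline 2, the edgeR log2 fold change of Mlkl was 1.96 (adjusted p = 0.0391).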

How the results depend on the processing

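Ripk3 and Mlkl kept a positive and Ripk1 a negative log2 fold change in each of 18 alternatives, but Ripk1 lost its call in 12 of them, Ripk3 in 8 and Mlkl in 6. With 1 library left out, 0 to 3 members and 1 to 1574 genes passed, 0 to 792 higher and 1 to 782 lower. With saline 1 and DXZ 1 both left out, 1332 genes passed (700 lower). DESeq2 called 2011 genes (1105 higher, 906 lower), and limma on log2(FPKM + 1) without a filter called 145 (90 higher, 55 lower) and 0 members.

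The replicate number does not show a pairing: same-numbered libraries deviated together with r = 0.258 and 0.226 for numbers 1 and 3 and -0.088 for number 2, and saline 2 correlated best with DXZ 1 (0.428). With the number as a block, 85 genes passed (46 higher, 39 lower) and 1 member, Mlkl (edgeR adjusted p = 0.0491). In that fit the log2 fold changes of Zbp1, Casp1, Gsdmd and Gsdme changed sign, to -0.084, -0.49, -0.14 and 0.051.

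Other sign changes were all in genes that did not pass. With libraries left out, the log2 fold changes of such genes ranged from -1.08 to 0.39 (Casp1), -0.24 to 0.33 (Gsdmd), -0.85 to 0.86 (Zbp1), -0.081 to 0.077 (Gsdme), -0.23 to 0.45 (Irf1) and -2.01 to 0.46 (Il1b). With saline 1 and DXZ 1 both left out they were -0.50 (Zbp1), -0.96 (Casp1), -0.14 (Gsdmd), 0.071 (Gsdme), -0.022 (Tnfrsf1a) and -0.34 (Irf1). With limma-voom they were -0.47 (Casp1), 0.015 (Gsdme) and -0.005 (Irf1), and with log2(FPKM + 1) without a filter -0.043 (Casp1). The cause was not tested. The low counts of Casp1, Zbp1 and Ripk3 limit their precision.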
